A study of Mus musculus with 6 samples.

Results

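The proteasome genes were taken as all genes of the table whose symbol begins with Psma, Psmb, Psmc, Psmd, Psme, Psmf or Psmg. This rule gave 50 of 21958 protein-coding genes. The core genes were the 19 Psma and Psmb genes, and the regulatory genes were the 25 Psmc, Psmd and Psme genes. The other 6 were kept apart. They are Psmf1, which encodes the inhibitor protein PI31, Psmg1 to Psmg4, which encode chaperones of core assembly, and Psmc3ip, which matches the rule by name but encodes a protein of meiotic recombination and no proteasome subunit.

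RNA was measured in synaptoneurosomes, a filtered brain homogenate enriched in pinched-off synaptic terminals, from the hippocampus and adjacent cortex of male FVB mice of 6 to 8 weeks. The polyribosome group (3 libraries) held RNA of the light and heavy polyribosomes of a sucrose gradient, pooled and free of the RNA granule fraction, from synaptoneurosomes given a 30 s pulse of 50 µM NMDA and 10 µM glutamate, then 120 µM of the NMDA receptor antagonist APV, and incubated for 20 min. The total group (3 libraries) held total RNA of unstimulated synaptoneurosomes, which were kept on ice with cycloheximide. No genetic modification is named for either group. Synaptoneurosomes of several mice were divided into aliquots, and whether the replicates were separate pools of mice is not given in the sources used here. Stimulation and fraction changed together and cannot be told apart.

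The proteasome degrades proteins that carry ubiquitin chains, and in neurons it is known for shaping synapses by removing synaptic proteins during plasticity. Its core particle is a barrel of stacked rings, with outer α rings (Psma genes) that gate the entrance and inner β rings (Psmb genes) that hold the cutting sites. The regulatory particle sits on the end of the barrel. Its base unfolds the substrate with a ring of ATPases (Psmc genes) and its lid (most Psmd genes) removes ubiquitin, while the Psme genes encode alternative caps that open the core without ATP.

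Most proteasome genes had a positive difference between polyribosomes and total RNA. Of the 44 tested, 0 passed the threshold as higher in the unpaired fit and 7 with the replicate block. Among all genes tested these shares were 0.71% and 11.8%. Of the 15 core genes that could be tested, 14 (93.3%) had a positive log2 fold change, polyribosome over total, with a median of 0.44. Of the 24 regulatory genes tested, 20 (83.3%) were positive, with a median of 0.25. Among all 12255 genes tested 50.1% were positive and the median was 0.00. Psmb5, a cutting subunit, had the highest value of the tested members, and Psme4, an alternative cap, had the lowest and was the 1 member that passed the threshold in the unpaired fit.

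Library totals on protein-coding genes ranged from 5294482 to 7361580 counts on polyribosomes and from 1044955 to 3738022 in total RNA, so single proteasome genes in total RNA rested on few counts, such as 12 for Psmb5 in total replicate 3. Levels are given in CPM, counts scaled to the library size, with TMM factors that ranged from 0.92 to 1.08. Replicate libraries of a group differed beyond sampling noise, with a chi-square per degree of freedom of 2.97 to 16.5. All 8 neuronal and synaptic marker genes were detected in every library, with a summed level of 9690 to 12100 CPM in total RNA and 11000 to 14500 on polyribosomes. Markers of other cells were detected too, none at 0. The 6 astrocyte markers summed to 31900 to 36400 CPM in total RNA and 40300 to 42400 on polyribosomes, the 6 oligodendrocyte markers to 7560 to 10700 and 10300 to 14200, the 6 microglia markers to 474 to 615 and 685 to 818, and the 5 endothelial markers to 235 to 259 and 231 to 427. The median log2 fold changes of these lists were 0.14 (neuronal, 7 of 8 positive), 0.38 (astrocyte, 6 of 6), 0.38 (oligodendrocyte, 6 of 6), 0.45 (microglia, 6 of 6) and 0.24 (endothelial, 4 of 5). The glial lists thus lay at 0.38 to 0.45 beside 0.44 for the core subunits, and their part in the proteasome values was not tested. In such bulk RNA, fewer terminals or cells of a type and less RNA per terminal cannot be told apart.

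The promoters of 3 genes are shown, those of the cutting subunits Psmb5 and Psmb6 and that of Psme4, which had the lowest value. All 3 hold the motif marked below. Psmb4 and Psmd9, with higher log2 fold changes than Psmb6, are not shown. Each stretch runs 5′ to 3′ on the gene's strand, from 120 bases before the RefSeq start site to 10 bases after it (GRCm38.p6), with capitals marking TGACNNNGC on either strand, the letters of the antioxidant response element that is bound by the NFE2L transcription factors, known regulators of proteasome genes. They lie at chr14:54617986-54618115 (minus strand), chr11:70525237-70525366 (plus strand) and chr11:30771655-30771784 (plus strand).
Psmb5: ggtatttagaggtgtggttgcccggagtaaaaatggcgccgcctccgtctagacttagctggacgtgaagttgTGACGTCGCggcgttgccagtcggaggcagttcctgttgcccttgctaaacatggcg
Psmb6: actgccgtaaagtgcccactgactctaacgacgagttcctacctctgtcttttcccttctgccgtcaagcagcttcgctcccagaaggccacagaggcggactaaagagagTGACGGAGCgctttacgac
Psme4: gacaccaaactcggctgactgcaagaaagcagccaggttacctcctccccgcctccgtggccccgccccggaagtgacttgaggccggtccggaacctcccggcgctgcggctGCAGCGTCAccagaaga

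The motif began 47 bases before the start site in Psmb5, 9 before it in Psmb6 and, on the opposite strand, 7 before it in Psme4. RefSeq promoters were matched for 42 of the 50 genes. In windows from 250 bases before to 50 bases after the start site, 6 of the 42 (14.3%) held the motif, against 14.0% of 27025 genes. The other 3 were Psmc6, Psmd9 and Psmd12. The genes that held it thus included both the highest and the lowest log2 fold change of the set, and the match is a description of the letters only.

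The 3 standard cutting subunits were all above 0, with a median of 0.63. Psmb5, which encodes the subunit with chymotrypsin-like activity (chr14:54614120-54617995, minus strand), was at 16.0, 20.6 and 26.1 CPM in polyribosome replicates 1 to 3 and at 10.4, 9.71 and 11.5 in total replicates 1 to 3. All polyribosome libraries lay above all total libraries. Its log2 fold change was 1.00 (standard error 0.24), which missed the threshold of 0.01 in the unpaired fit (edgeR's quasi-likelihood test, Benjamini-Hochberg adjusted p = 0.0155) and passed it with the replicate block (edgeR, adjusted p = 0.000101). With an offset for GC content and exon length in the blocked fit it was 0.46 and missed the threshold (edgeR, adjusted p = 0.0648). An annotated microRNA gene, Mir686, shares 12.12% of the exon bases of Psmb5 on the same strand.

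Psmb6 encodes the caspase-like subunit and was at 43.0, 46.4 and 53.3 CPM on polyribosomes and at 32.0, 32.8 and 24.9 in total RNA. Here too the groups did not overlap. The log2 fold change was 0.63 (standard error 0.18; edgeR, adjusted p = 0.0333 unpaired and 0.000785 with the replicate block), and 0.16 with the offset and the block. Psmb7, which encodes the trypsin-like subunit, was at 52.5, 57.8 and 70.0 CPM on polyribosomes and at 45.7, 40.9 and 45.1 in total RNA. These groups did not overlap either, and its value of 0.45 (standard error 0.18) missed the threshold in both fits (edgeR, adjusted p = 0.0888 and 0.0119). Psmb7 shares 34.91% of its exon bases with Nek6 on the opposite strand, and use of the strand in the counting is not given in the sources used here.

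The immunoproteasome subunits, which replace the cutting subunits in immune cells and under interferon, were mostly near the detection limit. Psmb10 replaces Psmb7 and was at 16.2, 18.1 and 22.2 CPM on polyribosomes and at 10.4, 11.4 and 20.1 in total RNA. Total replicate 3 reached into the polyribosome range, so the groups overlapped, and the log2 fold change of 0.57 (standard error 0.24) missed the threshold (edgeR, adjusted p = 0.119). Psmb8 had 7, 9 and 11 counts on polyribosomes and 4, 1 and 0 in total RNA. Psmb9 had 11, 4 and 6 counts and 1, 0 and 0. Both failed the filter on low counts, so no fold change is given.

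Immunoproteasome subunits took 14.3% of all counts on the 6 cutting subunits in polyribosome replicate 1 (95% Clopper-Pearson interval 12.2 to 16.7), 13.8% in replicate 2 (11.7 to 16.2) and 14.7% in replicate 3 (12.4 to 17.2). In total RNA the shares were 11.7% (8.72 to 15.2), 12.3% (8.74 to 16.7) and 19.8% (12.7 to 28.7). The means of 14.3% ± 0.451 (SD, n = 3) and 14.6% ± 4.51 (SD, n = 3) differed by less than the spread between total libraries, and the widest interval belonged to the shallowest library. The intervals cover counting error only. Most counts on cutting subunits thus fell on the standard kind in every library of both groups.

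The non-catalytic β genes were all positive. Psmb4 was at 57.4, 64.5 and 80.5 CPM on polyribosomes and at 48.2, 38.8 and 31.6 in total RNA, with no overlap. At 0.73 (standard error 0.20) it had the second value of the set, and missed the threshold unpaired (edgeR, adjusted p = 0.026) while it passed with the replicate block (edgeR, adjusted p = 7.71e-05). The gap between the groups was unequal between preparations, with log2 ratios of 0.25, 0.72 and 1.33. Psmb3, Psmb1 and Psmb2 had 0.44, 0.32 and 0.20, none past the threshold in either fit, and the median of the 4 genes was 0.38.

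The α ring genes, with a median of 0.33, had 6 of 7 members above 0. Psma2 was at 44.0, 43.5 and 57.6 CPM on polyribosomes and at 31.3, 36.5 and 24.0 in total RNA, without overlap. Its 0.62 (standard error 0.20) passed with the replicate block only (edgeR, adjusted p = 0.0473 unpaired and 0.00163 blocked). With the GC and length offset added to the block it was 0.92 (edgeR, adjusted p = 1.09e-09), the 1 member that was called higher in that fit. Psma2 mRNA is AT-rich for the set, at 39.37% GC, and has a long exon length of 2.911 kb.

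Psma6, Psma5, Psma7 and Psma4 followed with 0.50, 0.34, 0.33 and 0.28, and Psma1 with 0.03, none past the threshold in either fit. Psma3 was the core gene with a negative value, at 25.2, 26.1 and 25.9 CPM on polyribosomes and 33.8, 28.8 and 39.3 in total RNA. All its polyribosome libraries lay below all total libraries. The difference of -0.37 (standard error 0.18) missed the threshold (edgeR, adjusted p = 0.168) and was -0.05 with the offset and the block, so Psma3, like Psma2 a long and AT-rich member of the ring (2.846 kb, 40.79% GC), was near 0 in that fit.

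**Figure D1:**
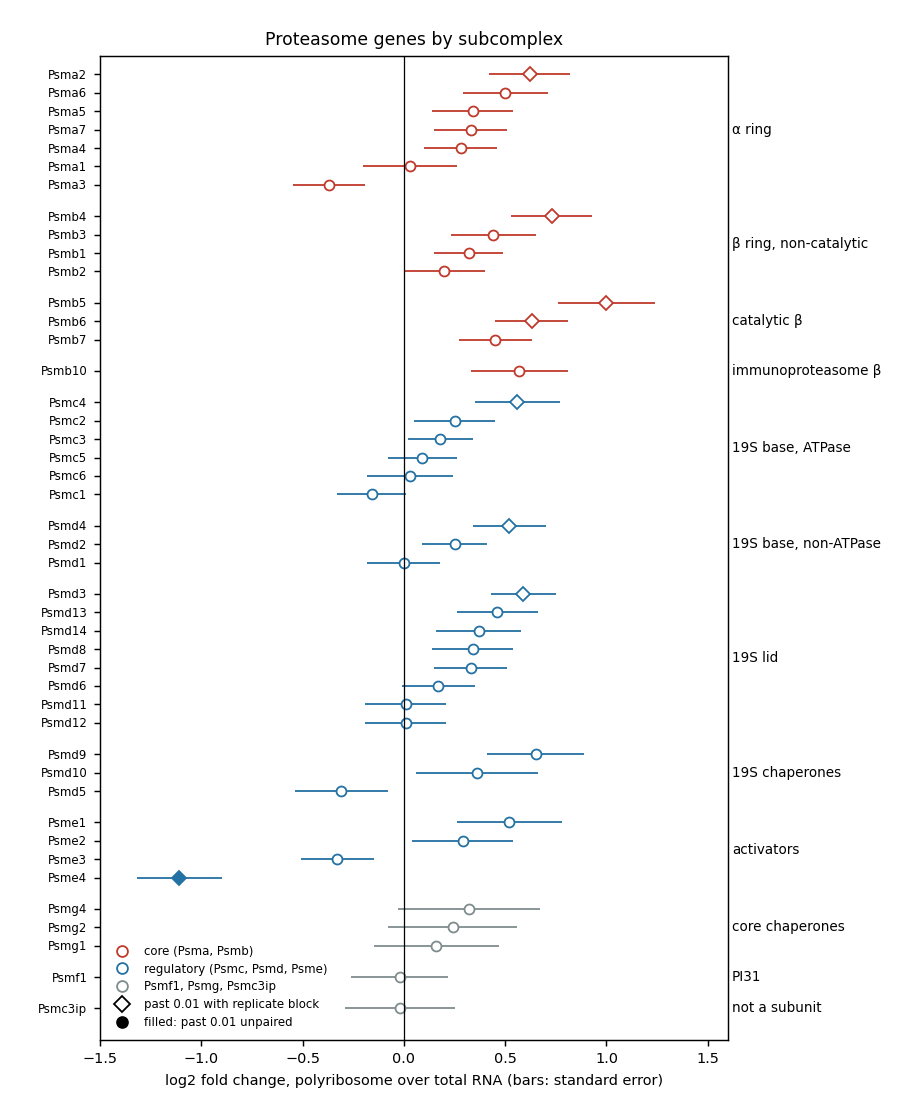
Log2 fold change, polyribosome over total RNA, of the 44 tested genes on the horizontal axis, grouped by subcomplex, with bars for the standard error. Filled symbols passed the threshold of 0.01 in the unpaired fit and diamonds passed it with the replicate block. Psmb5 stands at 1.00 and Psme4 at -1.11, and all 4 non-catalytic β genes and all 3 standard catalytic genes lie above 0.

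In the base of the regulatory particle the 6 ATPase genes had a median of 0.13, with 5 positive. Psmc4 was at 37.1, 32.1 and 42.2 CPM on polyribosomes and at 31.8, 21.8 and 18.2 in total RNA, which gave a log2 value of 0.56 (standard error 0.21). The groups were close, with the lowest polyribosome library just above the highest total library, and the gene passed only with the replicate block (edgeR, adjusted p = 0.0821 unpaired and 0.00507 blocked). Psmc2, Psmc3, Psmc5, Psmc6 and Psmc1 had 0.25, 0.18, 0.09, 0.03 and -0.16, none past the threshold in either fit. ATPases of one ring, which is built with a single copy of each, thus spanned -0.16 to 0.56, and the difference between the genes at either end was not tested.

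Among the other base genes, Psmd4, which encodes a ubiquitin receptor, was at 40.4, 45.6 and 51.9 CPM on polyribosomes and at 29.1, 34.8 and 32.6 in total RNA. Without overlap between the groups, its 0.52 (standard error 0.18) passed only with the replicate block (edgeR, adjusted p = 0.0631 unpaired and 0.00511 blocked). Psmd2, a scaffold of the base and the regulatory gene with the most reads, was at 155, 152 and 154 CPM and at 144, 132 and 108. Its 0.25 (standard error 0.16) missed the threshold in both fits (edgeR, adjusted p = 0.308 and 0.109), although the groups did not overlap. Psmd1, the other scaffold, was at 0.00.

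All 8 lid genes were above 0, with a median of 0.33. Psmd3, a scaffold of the lid, was at 62.1, 65.1 and 66.3 CPM on polyribosomes and at 41.2, 46.6 and 39.3 in total RNA. Its replicates were tight and the groups well apart, and the log2 fold change of 0.59 (standard error 0.16) passed with the replicate block (edgeR, adjusted p = 0.0281 unpaired and 0.000292 blocked). Psmd13, Psmd14 (the lid's deubiquitinase), Psmd8, Psmd7 and Psmd6 had 0.46, 0.37, 0.34, 0.33 and 0.17. Psmd11 and Psmd12 were both at 0.01, and turned to -0.10 and -0.11 when libraries were scaled by total counts alone. None of these 7 passed the threshold in either fit.

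Of the chaperones that assemble the base, Psmd9 was at 13.3, 11.3 and 14.2 CPM on polyribosomes and at 7.20, 10.0 and 6.71 in total RNA. At 0.65 (standard error 0.24) it had the highest value of the regulatory genes and the groups did not overlap, but it missed the threshold in both fits (edgeR, adjusted p = 0.0726 and 0.0185). Psmd10 was at 4.60, 5.87 and 5.35 CPM on polyribosomes and 4.22, 4.02 and 3.84 in total RNA, and its 0.36 (standard error 0.30), although the groups did not overlap, rested on 4 to 17 counts in each total library. Psmd5 was at 16.0, 14.3 and 12.4 CPM and at 22.1, 17.1 and 9.59, overlapping, with a value of -0.31 (standard error 0.23; edgeR, adjusted p = 0.383). The 3 chaperones therefore took both signs.

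The 4 tested genes of alternative caps were split, with 2 above and 2 below 0. Psme4 encodes PA200, a large nuclear activator known for the breakdown of acetylated histones (chr11:30771726-30880361, plus strand). It was at 27.2, 22.0 and 16.1 CPM on polyribosomes and at 54.1, 46.6 and 38.4 in total RNA, a mean of 21.7 ± 5.57 against 46.3 ± 7.89 (SD, n = 3 each). All polyribosome libraries lay below all total libraries, and the 3 preparations gave log2 ratios of -0.98, -1.07 and -1.23.

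The log2 fold change of Psme4 was -1.11 (standard error 0.21; edgeR's quasi-likelihood test, adjusted p = 0.00631 unpaired), so it was called lower without the block. It was also called with the block (-1.08, edgeR, adjusted p = 2.08e-09) and in DESeq2 (adjusted p = 0.000624). With the offset and the block it was -0.74 (edgeR, adjusted p = 2.97e-06), and with the offset alone -0.77, past the threshold no longer (edgeR, adjusted p = 0.021). Leaving out each library in turn gave -1.31 to -0.95, with the call lost without polyribosome replicate 2, total replicate 1 or total replicate 2 (edgeR, adjusted p up to 0.0461 over the 6 fits). Psme4 has the longest exon length of the 50 genes, 6.491 kb.

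Psme3 encodes the nuclear PA28γ cap and was at 40.9, 41.7 and 30.5 CPM on polyribosomes and at 45.4, 48.6 and 49.9 in total RNA. The groups did not overlap, yet its -0.33 (standard error 0.18) missed the threshold (edgeR, adjusted p = 0.214). Psme1 and Psme2, the 2 genes of the cytosolic, interferon-inducible PA28 cap, had 0.52 and 0.29, and neither passed in either fit. Psme1 was at 12.7, 12.4 and 17.9 CPM and at 10.2, 7.37 and 14.4, and Psme2 at 11.4, 9.04 and 14.2 and at 9.19, 8.04 and 12.5. For both genes the groups overlapped, and Psme2 shares near-identical sequence with Psme2b, which had 2, 2 and 3 counts on polyribosomes and 2, 2 and 0 in total RNA and failed the filter.

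**Figure D2:**
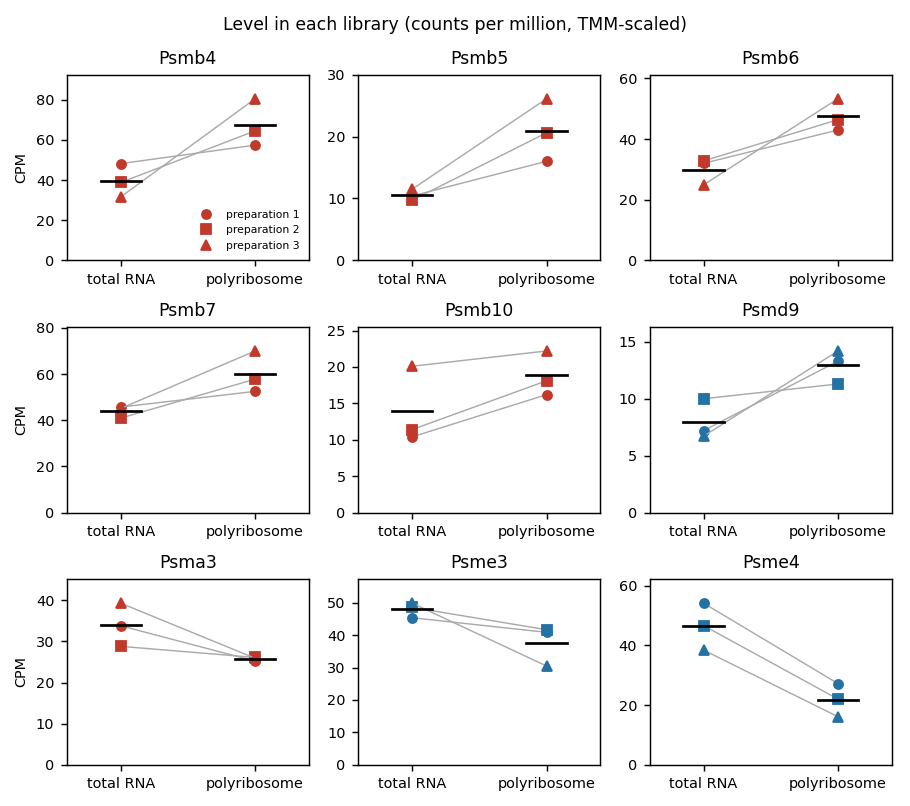
Level of 9 proteasome genes in each library, in CPM on axes that start at 0, with lines joining the libraries of one replicate number and horizontal bars at the group means. Psmb5 lies at 9.71 to 11.5 in total RNA and 16.0 to 26.1 on polyribosomes, whereas Psme4 lies at 38.4 to 54.1 and 16.1 to 27.2.

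Psmf1 and the assembly chaperones of the core gave no call. Psmf1 was at 15.7, 12.8 and 22.6 CPM on polyribosomes and 14.4, 19.1 and 19.2 in total RNA, with a difference of -0.02 on the log2 scale (standard error 0.24). Psmg4, Psmg2 and Psmg1 had 0.32, 0.24 and 0.16, with standard errors of 0.31 to 0.35, and the groups overlapped for each. Psmg3 had 16, 13 and 15 counts on polyribosomes and 6, 6 and 1 in total RNA and failed the filter. Psmc3ip was at -0.02 (standard error 0.27), and it shares 29.82% of its exon bases with Mlx on the opposite strand. Levels of the tested chaperones were 1.92 to 12.6 CPM over the libraries.

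The remaining genes that failed the filter were Psma8, a testis subunit, with 0, 0 and 1 counts on polyribosomes and 0 in each total library, and Psmb11, a thymus subunit, with 1 count in each of the 6 libraries. These tissue-specific subunits were thus at the detection limit, where 3 counts are the upper limit that a count of 0 allows. In all, 44 of the 50 genes were tested.

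Calls on single genes at the adjusted threshold of the unpaired fit were few, as among all genes. At an adjusted p under 0.01, 0 of the 44 members were higher and 1 was lower (Psme4), against 0.71% higher and 2.36% lower among all genes tested (edgeR). DESeq2 also gave 0 higher and 1 lower. At an unadjusted p under 0.05, 12 of the 44 members were higher (7 core and 5 regulatory) and 1 was lower, against 15.4% and 17.1% of all genes (edgeR). There the share called higher was above that of all genes and the share called lower was below it. With the replicate block 7 members were higher (Psmb4, Psmb5, Psmb6, Psma2, Psmd3, Psmc4 and Psmd4) and 1 was lower, against 11.8% and 13.2% of all genes. With the offset and the block, 1 was higher (Psma2) and 1 lower, against 9.15% and 7.16%. In 20 members all polyribosome libraries lay above all total libraries and in 3 (Psma3, Psme3 and Psme4) below, against 17.4% and 18.9% of all genes. Of these 20, 10 were core and 10 regulatory genes.

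As whole sets, the core genes summed to 524, 541 and 659 CPM in polyribosome replicates 1 to 3 and to 449, 409 and 432 in total replicates 1 to 3. The regulatory genes summed to 922, 906 and 955 and to 892, 837 and 744. On this TMM scale every polyribosome library lay above every total library for both sums, by a wider margin in the core. For the regulatory genes the gap was narrow, 906 against 892, and sums under other scalings were not computed. These sums weigh abundant genes most, Psmd2 above all for the regulatory set.

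Taken by preparation, the median log2 ratio of the 15 core genes was 0.29, 0.33 and 0.61 in preparations 1 to 3 (SD 0.17), and that of the 24 regulatory genes was 0.11, 0.18 and 0.41 (SD 0.16). Preparation 3, which holds the shallowest total library, gave the largest value for both. The core median was above the regulatory median in each preparation, by 0.18, 0.14 and 0.20 (SD 0.03). In the fit over all libraries that difference of medians was 0.19, and it was 0.12 with the replicate block and 0.08 with the offset and the block. Single libraries moved these values, as the difference was 0.09 without total replicate 1 and 0.30 without polyribosome replicate 1, and the regulatory median was 0.16 without polyribosome replicate 3. Since the sets were chosen with results of these data known, no test was made of either.

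**Figure D3:**
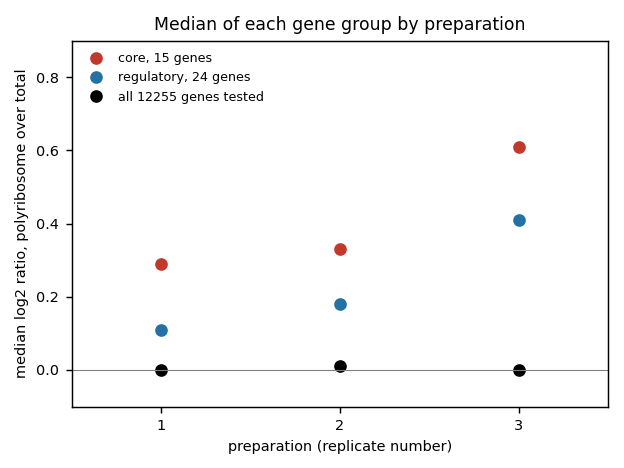
Median log2 ratio, polyribosome over total RNA, of the core genes, the regulatory genes and all genes tested, for each of the 3 preparations on the horizontal axis. The core lies at 0.29, 0.33 and 0.61 and the regulatory genes at 0.11, 0.18 and 0.41, while all genes stay at 0.00 to 0.01.

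Counting only the constitutive subunits, without the immunoproteasome genes, the alternative caps and the base chaperones, 13 of 14 core genes and 16 of 17 regulatory genes were positive. Their medians were 0.39 and 0.25, a difference of 0.14. The genes with negative values in the full regulatory set were thus mostly caps and a chaperone (Psme3, Psme4 and Psmd5), with Psmc1 the 1 constitutive subunit among them. When libraries were scaled by total counts alone, the median of all genes moved to -0.11, the core median to 0.32 and the regulatory median to 0.14, and 13 core and 15 regulatory genes stayed positive.

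Transcript length and base composition moved with these values. Core mRNAs were short, with a median exon length of 1.18 kb, regulatory ones had 2.02 kb and all genes tested 3.61 kb, while the median GC content was 49.2%, 49.7% and 50.3%. Across the 39 core and regulatory genes, which share their libraries, the log2 fold change had a Spearman's rho of -0.48 and a Pearson's r of -0.61 with exon length, and of 0.54 and 0.48 with GC content. Across all genes with both values (12212) these were -0.37 and -0.35, and 0.54 and 0.53, so all genes showed relations of the same sign. Genes are not independent replicates, and the values are a description.

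When the GC and length offset was added to the blocked fit, the core median went from 0.35 to 0.23 and the regulatory median from 0.23 to 0.15, and 12 and 17 genes were positive. The subcomplexes moved unequally, the 3 cutting subunits from 0.59 to 0.29, the 8 lid genes from 0.34 to 0.20, the 6 base ATPases from 0.11 to 0.02 and the 3 base chaperones from 0.34 to 0.48. Psmc6, the ATPase gene with the lowest GC content (36.97%), went from 0.04 to 0.45, without passing the threshold (edgeR, adjusted p = 0.0155). Psmb3 went from 0.35 to -0.02. The order of single subunits thus depended on this correction, whereas both medians stayed above the all-gene median of 0.01 in that fit.

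**Figure D4:**
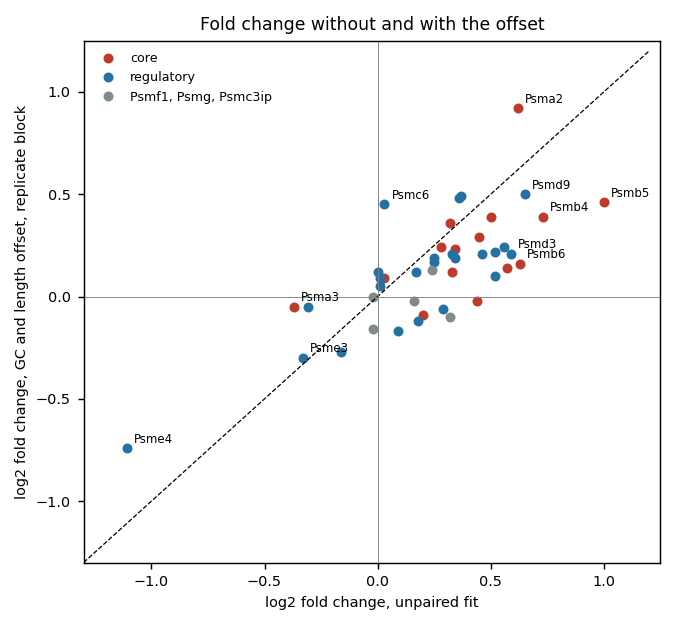
Log2 fold change of the tested genes in the unpaired fit (horizontal axis) and in the fit with the GC and length offset and the replicate block (vertical axis), with a dashed line of equality. Psmb5 moves from 1.00 to 0.46 and Psme4 from -1.11 to -0.74, while Psma2 lies above the line at 0.92.

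Subunits that are built into the particle in equal copies were not equally abundant as mRNA. Per kilobase of exon, the 14 constitutive core genes ranged in total RNA from 10.5 CPM (Psma2) to 37.8 (Psmb7), a 3.6-fold range, and on polyribosomes from 9.04 (Psma3) to 59.6 (Psmb6), a 6.6-fold range. The 17 constitutive regulatory genes ranged from 6.96 (Psmd12) to 43.3 (Psmd2) in total RNA and from 7.18 to 52.0 on polyribosomes for the same genes, 6.22-fold and 7.24-fold ranges. When the median length of a gene's coding transcripts replaced the exon length, the ranges were 3.6-fold and 4.29-fold for the core and 4.47-fold and 5.2-fold for the regulatory genes.

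At the upper end in total RNA stood Psmb7, Psmb3 and Psmb6 with 37.8 ± 2.27, 37.5 ± 2.99 and 37.5 ± 5.44 CPM per kilobase of exon (SD, n = 3), which did not differ beyond their spread. Psmb4 came next at 33.4, within the spread of Psmb6. At the lower end, Psma2 at 10.5 ± 2.16, Psmb10 at 10.7 ± 4.08, Psmb5 at 11.7 ± 1.01 and Psma3 at 11.9 ± 1.85 overlapped as well. On polyribosomes Psmb5 was at 23.3 ± 5.67 and Psma3 at 9.04 ± 0.172. Per coding transcript length Psmb5 was at 13.9 ± 1.19 and Psma3 at 18.3 ± 2.84 in total RNA. In total RNA Psmb5 thus lay below Psma3 per coding transcript length, while per kilobase of exon their values overlapped.

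Among the regulatory genes Psmd2 and Psmc5 had the highest levels per kilobase of exon in total RNA, at 43.3 ± 6.16 and 39.6 ± 3.70 CPM. Psmc5 itself was at 48.7, 54.1 and 62.8 CPM on polyribosomes and at 46.9, 56.6 and 52.7 in total RNA, overlapping. The base chaperones were the least abundant tested regulatory genes, with Psmd10 at 2.74 ± 0.131, Psmd9 at 3.08 ± 0.693 and Psmd5 at 3.70 ± 1.43 CPM per kilobase of exon, and Psme4 was next at 7.14 ± 1.22 with Psmd12. Assembly factors and PA200 thus lay under the structural subunits, apart from Psmd12 at 6.96 ± 1.36.

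**Figure D5:**
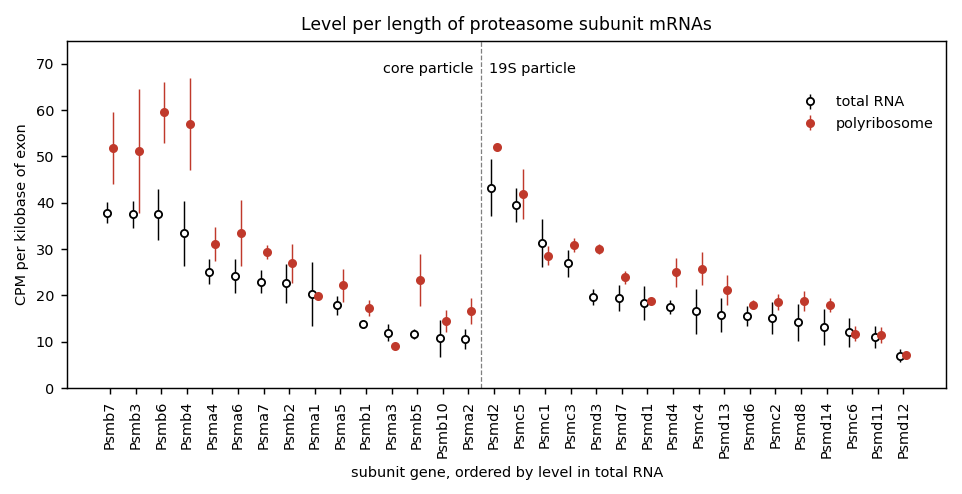
Level of core (left) and regulatory particle genes (right) in CPM per kilobase of exon, as the mean of 3 libraries with bars for the SD, open for total RNA and filled for polyribosomes, in order of the level in total RNA. Psmb6 reaches 59.6 and Psmd2 52.0 on polyribosomes, and Psmd12 lies lowest among the regulatory subunits shown at 6.96 and 7.18.

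Other genes of the pathway were split in direction. Of 22 proteasome partners (shuttle factors, particle-bound deubiquitinases and ligases, the assembly factor Pomp and the transcription factors of the proteasome genes), 10 were positive, with a median of -0.02. In the unpaired fit 0 were called in either direction (edgeR), against 0.71% higher and 2.36% lower among all genes tested. At an unadjusted p under 0.05, 4 of the 22 were higher and 6 lower, against 15.4% and 17.1% of all genes (edgeR). With the replicate block 2 of the 22 were higher, with the shuttle factor Ubqln1 among them, and 6 lower, against 11.8% and 13.2% of all genes. The 6 were Ube3c, AI314180 (the symbol used here for the gene of the particle-binding protein ECM29), Uchl5, Usp14, Ube3a and Zfand5.

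Ube3c, a ligase bound to the particle, was at 51.3, 51.8 and 34.2 CPM on polyribosomes and at 87.7, 76.0 and 59.5 in total RNA, a value of -0.72 (standard error 0.20; edgeR, adjusted p = 0.0286 and 7.93e-06). The groups did not overlap. AI314180 was at -0.64 and Usp14, a deubiquitinase of the particle, at -0.60, and with the offset and the block these were -0.24 and -0.13. Of the 6 genes lower with the block, Ube3c (-0.46; edgeR, adjusted p = 0.00122) was the 1 also called with the offset and the block. Nfe2l1 and Nfe2l2, whose proteins bind the motif shown above, had 0.29 and 0.33 and passed in neither fit.

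Of the genes of ubiquitin, its activation and unfolding, 9 of 10 were tested and 5 were positive, with a median of 0.01. Ubb, which encodes ubiquitin, was at 275, 327 and 456 CPM on polyribosomes and at 156, 193 and 259 in total RNA, a value of 0.82 (standard error 0.22) that passed with the block only (edgeR, adjusted p = 0.0274 unpaired and 9.79e-08 blocked). Its groups did not overlap. Uba6, a gene of ubiquitin activation, was at -0.64 and was called lower with the block (edgeR, adjusted p = 0.0668 unpaired and 0.00611 blocked), but with the offset and the block it was -0.01 and not called (edgeR, adjusted p = 0.969). Rps27a, which encodes ubiquitin fused to a ribosomal protein, was at -0.04 and passed in neither fit.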

How the data were processed

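RNA-seq of 3 polyribosome and 3 total RNA libraries was used. The authors depleted ribosomal RNA, made dUTP libraries, mapped reads with STAR (2.5.2b per the labels) to GRCm38 and counted them per gene of Gencode vM6 (basic set). The deposited table holds unnormalized whole-number counts for 21958 genes, and the authors' DESeq2 columns (mean, log2 fold change with its error, test statistic and p-values), which were not used.

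Counts were fitted in edgeR 4.0.16 (R 4.3.3) with filterByExpr (12255 genes kept), TMM scaling and a quasi-likelihood test of group alone. Benjamini-Hochberg adjustment ran over all genes tested, with the study's threshold of 0.01. Log2 ratios by preparation used log2 CPM with a prior count of 2. DESeq2 1.42.0, other scalings, no filter, the replicate block, a GC and exon length offset (splines with 5 degrees of freedom, values from Gencode vM21 for 99.6% of genes tested) and leaving out each library were the alternatives. The level per coding transcript length was added after seeing the data. The procedure was tested on simulated counts.

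Same-numbered libraries were taken as aliquots of a preparation, and their deviations from group means had correlations of 0.366, 0.258 and 0.38. The replicate numbers were therefore treated as pairs in the blocked fits and in the ratios by preparation. The main, unpaired fit did not use them. Whether the triplicates came from separate animals is not given in the sources used here, so p-values measure the spread between these samples, which may be technical.

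The genes and lists were chosen with earlier results of these data known. Values in every library are given for members past the threshold, the 3 highest and 3 lowest log2 fold changes at a mean of at least 10 CPM, the cutting and immunoproteasome subunits, the 2 highest and 2 lowest core and regulatory genes per exon length, and a few more members chosen after their values were seen. Pathway genes are given where past the threshold or among the 3 furthest from 0 in their list, and a few were added after their values were seen. Lists were described by counts and medians and not tested. Single-gene values of a few pathway genes are not reported here.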

Additional observations from a re-analysis of the deposited data

How the results depend on the processing

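The core and regulatory medians stayed positive under every alternative run. The core median was 0.23 with the GC and length offset and the replicate block and 0.22 with the offset alone, and 0.34 to 0.54 with each library left out. The regulatory median was 0.16 to 0.30 with each library left out, and 13 to 14 core and 17 to 19 regulatory genes stayed positive. The core minus regulatory difference was 0.12 with the replicate block, 0.08 with offset and block, 0.07 with the offset alone, 0.14 for constitutive subunits and 0.09 to 0.30 with each library left out (0.09 without total replicate 1, 0.30 without polyribosome replicate 1). Members called higher numbered 7 with the replicate block, 2 without the filter (Psmb4 and Psmb5), 1 with offset and block, and 0 with each library left out. Among all genes, 1441 of 12255, 476 of 16736 and 1117 of 12212 were called higher in the first 3 of these fits. With each library left out, 0 to 61 of all genes were. Members called lower numbered 0 with the offset alone and 0 to 1 with each library left out. Among all genes 82 of 12212 were called lower with the offset alone, and 22 to 208 with each library left out. Apart from those 7, the pairing changed no call of a member in the fits without the offset. With the offset, Psma2 was called higher and Psme4 lower with the block, and neither was called without it (edgeR).

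The signs of 14 members, with unpaired values of -0.02 to 0.44, turned under at least 1 alternative, and the cause was not tested. With total counts alone these were Psma1 (-0.08), Psmc5 (-0.03), Psmc6 (-0.08), Psmd1 (-0.11), Psmd11 (-0.10) and Psmd12 (-0.11). With upper-quartile scaling they were Psmd1 (-0.01), Psmd11 (-0.00) and Psmd12 (-0.01), and with the replicate block Psmd1 (-0.00) and Psmd11 (-0.03). With offset and block they were Psmb2 (-0.09), Psmb3 (-0.02), Psmc3 (-0.12), Psmc5 (-0.17), Psme2 (-0.06), Psmg1 (-0.02) and Psmg4 (-0.10), and with the offset alone Psmb2 (-0.05), Psmc3 (-0.12), Psmc5 (-0.15), Psme2 (-0.03), Psmf1 (0.09), Psmg1 (-0.08) and Psmg4 (-0.13). Psmc3ip was 0.03 in DESeq2 and 0.01 without the filter. With each library left out, Psma1 ranged from -0.24 to 0.18, Psmc3ip from -0.13 to 0.12, Psmc5 from -0.01 to 0.17, Psmc6 from -0.12 to 0.17, Psmd1 from -0.12 to 0.10, Psmd11 from -0.11 to 0.13, Psmd12 from -0.10 to 0.21, Psmf1 from -0.25 to 0.15 and Psmg1 from -0.02 to 0.29. Library totals went down to 1044955 counts (total replicate 3), which limits the precision for weakly expressed members.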
